A study of Vitis vinifera with 36 samples.

Results

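VviGT3 (VIT_03s0180g00320) is annotated in grapevine, Vitis vinifera, as an indole-3-acetate beta-glucosyltransferase, in the category of auxin inactivation by conjugation. It is 1 of the 26688 transcript identifiers on the array, and it was followed through its single probe, designed on transcript GSVIVT01003143001 and paired with the gene by the study's supplementary tables. Its identifier places the gene on chromosome 3; its coordinates were not used here. The study picked VviGT3 partly from its difference between seeded and seedless varieties at pea size. It also used co-expression with the ovule identity gene VviAGL11 over all samples and in other grapevine expression data. Expression level and the seeded to seedless ratios of an earlier study entered its ranking too. Values that include pea size arrays are therefore descriptions with no test, and the other comparisons were not fully independent of that choice, since the co-expression used every stage. The study then examined the gene by in situ hybridization, by VviAGL11 overexpression in leaves and by a promoter reporter assay. Those experiments are not part of these arrays.

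Ovules and seeds were taken from field vines of 3 table grape varieties that received no hormone treatment. Red Globe (RG) and Italia (IT) carry seeds, and Thompson Seedless (TS) is stenospermocarpic, meaning that fertilisation takes place but the seed then aborts. The stages were pre-bloom (S1, E-L 17, BBCH 57 to 60), post-bloom (S2, E-L 19 to 25, BBCH 65 to 68), pea size (S3, E-L 29, BBCH 73 to 75) and veraison, the onset of ripening (S4, E-L 35, BBCH 81). Each of the 12 groups held 3 arrays from biological replicates, 36 arrays in all. Each variety is 1 genotype, so a difference between a seeded and the seedless variety is also a difference between genotypes, and the part of seedlessness in it cannot be told apart.

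Glucosyltransferases of this kind move glucose from UDP-glucose to the carboxyl group of indole-3-acetic acid, the main auxin, and make an ester conjugate that no longer acts as the hormone but can be hydrolysed back to it, as shown for the maize and Arabidopsis enzymes. Auxin is also stored as amide conjugates, made by GH3 enzymes and opened by amidohydrolases. In Arabidopsis, auxin made in the endosperm after fertilisation reaches the integuments and drives the growth of the seed coat, the tissue in which seeded and stenospermocarpic grapes differ most visibly.

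The probe was well above background on all 36 arrays and saturated on 0, with processed signals between 1037 and 72930. The 75th percentile of the signal of an array, to which each value was scaled, lay between 100.4 and 1359, and between 38.7% and 90.1% of probes were well above background; the lowest of both belonged to IT S1 replicate 3. Below, a level is the log2 of the signal over that percentile. RG and TS arrays shared 7 slides, whereas the IT arrays filled 5 further slides, so a difference between IT and either of the other varieties cannot be told apart from one between slides. Replicates of a group correlated between 0.855 and 0.991 over the 23068 probes tested. All 4 ovule and seed coat markers (VviAGL11, inner no outer, VvANR and VvLAR1) were above background at S3 in each variety; at S4 inner no outer was above background on no RG or TS array. In whole ovules and seeds, fewer cells of a type and less RNA per cell cannot be told apart.

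In the fit of group means VviGT3 was called between no 2 varieties at pre-bloom or post-bloom, although at pre-bloom RG was above TS on each slide that held both. It had higher means at pea size in all 3, and then parted at veraison, where it was highest in RG, intermediate in IT and had a mean in TS close to that of post-bloom. Over the 4 stages in order, the mean level in RG was 3.62 ± 0.95, 2.88 ± 0.65, 5.70 ± 0.02 and 6.33 ± 0.31 (SD, n = 3 at each stage). In IT it was 3.60 ± 0.89, 2.92 ± 0.58, 5.71 ± 0.43 and 4.69 ± 0.68 (SD, n = 3). In TS it was 2.56 ± 0.92, 2.82 ± 1.12, 4.39 ± 0.16 and 2.80 ± 1.28 (SD, n = 3). As a multiple of the 75th percentile, the RG means ran from 7.39 at S2 to 80.5 at S4, while the lowest TS mean was 5.90 at S1. The highest TS mean, at S3, was below those of both seeded varieties at S3 and at S4.

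**Figure D1:**
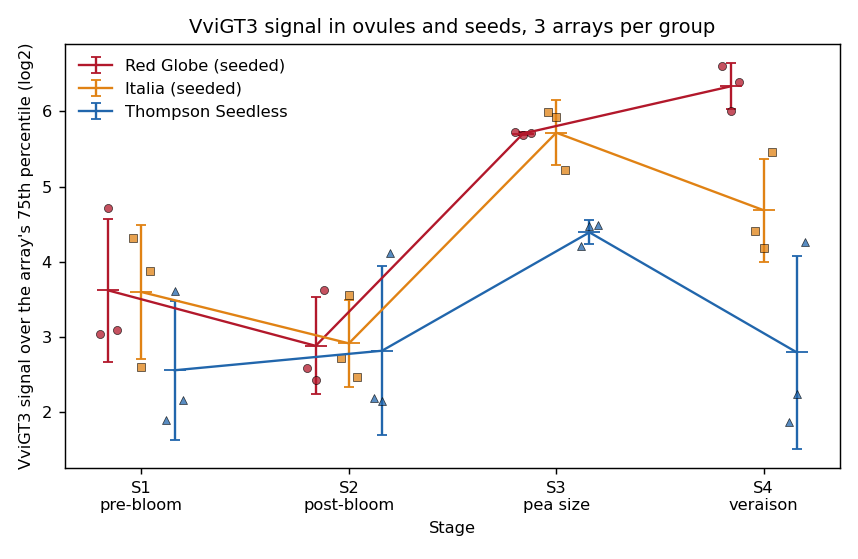
Level of VviGT3 (y axis, log2 of the signal over the array's 75th percentile) at the 4 stages (x axis) in Red Globe, Italia and Thompson Seedless. Points are single arrays, and bars are the mean with the SD of 3 arrays; at S4 the highest RG array lies at 6.61, and the TS arrays between 1.88 and 4.26.

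Ordered by their means, the 12 groups ran RG S4, IT S3, RG S3, IT S4, TS S3, RG S1, IT S1, IT S2, RG S2, TS S2, TS S4 and TS S1. Of the 11 pairs of neighbours in this order, 9 had arrays that overlapped. The exceptions were RG S4 against IT S3, with a gap of 0.62, and RG S3 against IT S4, with a gap of 1.02. The 7 lowest means, which include every S1 and S2 group and TS S4, all lay between 2.56 and 3.62.

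At pre-bloom the means of both seeded varieties were about 1 log2 unit above that of TS, which did not pass the test. The 3 RG arrays at S1 read 3.05, 4.72 and 3.10, the IT arrays 4.32, 2.61 and 3.88, and the TS arrays 1.90, 3.62 and 2.17. Both seeded groups overlapped TS through TS replicate 2 alone, since the other TS arrays lay below every RG and IT array. In each variety 1 array stood away from the other two: replicate 2 was the high one in RG and TS and the low one in IT. RG minus TS was 1.06 (SE 0.60, 95% interval -0.18 to 2.30; adjusted p = 0.416, limma), and 5.61% of the probes tested were called in that comparison, meaning an adjusted p under 0.05 with a difference of at least 1 on the log2 scale. IT minus TS was 1.04 (SE 0.60, 95% interval -0.20 to 2.28; adjusted p = 0.239, limma), where 12.1% of probes were called. The median over all probes was 0.30 for IT minus TS, against 0.01 for RG minus TS. Without scaling IT minus TS was 0.67, and after quantile normalization it was 1.31, neither called. The 2 seeded varieties lay 0.02 apart (95% interval -1.22 to 1.26), an interval that still allows RG to be up to 2.40 times IT; 8.49% of probes were called there. These sizes moved with single arrays: RG minus TS was 0.51 without RG S1 replicate 2 and 1.59 without TS S1 replicate 2, and IT minus TS was 0.68 without IT S1 replicate 1 and 1.57 without TS S1 replicate 2, none called. The petal and stamen markers summed to between 5.87 and 9.83 in RG at S1, between 4.72 and 6.79 in IT and between 1.39 and 2.12 in TS. The green tissue markers summed to between 12.2 and 27.8 in RG, between 33.9 and 51.3 in IT and between 39.8 and 107.6 in TS. The ovule and seed coat markers summed to between 42.6 and 102.1 in RG, between 41.9 and 90.0 in IT and between 19.6 and 49.5 in TS. Their median difference from TS was 1.00 in RG, with 0 of the 4 called, and 0.98 in IT, with 1 called higher. The part of all these markers in the S1 differences was not tested.

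The S1 arrays of RG and TS with the same replicate number shared a slide, so each slide gave its own difference. RG was above TS by 1.15 on slide 5, by 0.93 on slide 12 and by a value between these on slide 1. The 3 within-slide differences had a mean of 1.06 ± 0.12 (SD, n = 3 slides), all of 1 sign and closer together than the arrays of either variety. With the slide as a fixed term the adjusted p was 0.134 (limma), still short of the threshold.

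At post-bloom no difference between the varieties passed the test. The RG arrays read 2.59, 2.44 and 3.62, the IT arrays 2.72, 3.57 and 2.46, and the TS arrays 2.19, 2.15 and 4.12. Each group spanned more than 1 log2 unit, and the highest single value belonged to TS. RG minus TS was 0.07 (95% interval -1.18 to 1.31; adjusted p = 0.986, limma; 4.96% of probes called). IT minus TS was 0.10 (95% interval -1.14 to 1.34; adjusted p = 0.928, limma; 11.2% called), and RG minus IT was -0.03 (95% interval -1.27 to 1.21; adjusted p = 0.974, limma; 14.1% called). On slide 6 RG was above TS by 0.29, and on slide 12 the difference was -0.49. These intervals leave room for a 2-fold difference, so the arrays do not show that the levels were equal.

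The TS S2 array at 4.12 also stood apart in other transcripts. The summed signal of the 4 ovule and seed coat markers was 42.3 times the 75th percentile there, against 18.3 and 17.1 in the other two replicates, and that of the 4 embryo and endosperm markers was 7.53 against 24.3 and 27.6. VviAGL11, 1 of the 4 ovule and seed coat markers, lay between 2.52 and 2.75 on the 3 TS S2 arrays. The higher sum therefore came from other markers of the 4. The part of these markers in the VviGT3 value was not tested. Without this array RG minus TS at S2 was 0.71 and IT minus TS was 0.75, neither called.

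From pre-bloom to post-bloom no change of VviGT3 passed the test in any variety. S2 minus S1 was -0.74 in RG (95% interval -1.98 to 0.51; adjusted p = 0.870, limma), -0.68 in IT (-1.92 to 0.56; adjusted p = 0.572, limma) and 0.26 in TS (SE 0.60; adjusted p = 0.890, limma). The share of probes called in these comparisons was 0.815%, 8.51% and 3.37%. In IT, whose same-numbered arrays shared slides at these stages, the within-slide values were -1.59, 0.96 and -1.41. In RG they were -0.45 on slide 5 and 0.53 on slide 12, so no direction held over the slides of either variety, and in TS the 1 slide with both stages gave 1.95. Leaving out 1 array moved the RG value to between -1.11 (without RG S2 replicate 3) and -0.19 (without RG S1 replicate 2) and the IT value to between -1.18 (without IT S1 replicate 2) and -0.32 (without IT S1 replicate 1). With the slide as a fixed term RG was at -0.071. With array weights, which count a deviating array for less and which stopped before converging, RG was called at -1.35 (adjusted p = 0.039, limma). IT was also called under those weights (adjusted p = 0.013, limma).

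Pea size is the stage at which the study chose the gene, and its values are given as a description. The RG arrays read 5.72, 5.68 and 5.71, the IT arrays 5.99, 5.93 and 5.22, and the TS arrays 4.21, 4.48 and 4.49. Every array of both seeded varieties was above every TS array, and the 3 RG arrays had an SD of 0.02. RG minus TS was 1.31 (SE 0.60) and IT minus TS 1.32 (SE 0.60), which correspond to ratios of 2.48 and 2.50. RG minus IT was -0.01. On the slides that held both varieties, RG was above TS by 1.52 on slide 2 and by 1.19 on slide 4.

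The step from post-bloom to pea size was upward in all 3 varieties, with no overlap between the stages in any of them. S3 minus S2 was 2.82 in RG, 2.80 in IT and 1.57 in TS (SE 0.60 each), or ratios of 7.06, 6.95 and 2.97. Without the TS S2 array at 4.12 the TS step was 2.22. Leaving out any 1 array kept the RG step between 2.59 and 3.19 and the IT step between 2.57 and 3.12. Other transcripts moved with this step. The green tissue markers summed to between 23.3 and 30.9 in RG at S2 and between 282.6 and 403.3 at S3, to between 31.9 and 80.3 and then between 201.3 and 271.9 in IT, and to between 49.8 and 58.4 and then between 157.3 and 205.4 in TS. The ovule and seed coat markers went from between 42.9 and 44.7 to between 101.4 and 125.7 in RG and from between 24.1 and 33.2 to between 90.4 and 177.7 in IT, while in TS the ranges of the 2 stages overlapped. The part of these markers in the step was not tested.

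Veraison gave the widest separation. The RG arrays read 6.61, 6.0 and 6.38, the IT arrays 4.41, 4.18 and 5.46, and the TS arrays 1.88, 2.25 and 4.26. All RG arrays were above all IT and TS arrays, while the highest TS array lay above the lowest IT array. RG minus TS was 3.53 (SE 0.60, 95% interval 2.29 to 4.77; adjusted p = 8.76e-05, limma), a ratio of 11.6, and 6.93% of the probes tested were called higher in RG and 9.96% lower. IT minus TS was 1.89 (SE 0.60, 95% interval 0.65 to 3.13; adjusted p = 0.017, limma), a ratio of 3.70, where 15.9% were called higher in IT and 13.3% lower. RG minus IT was 1.64 (SE 0.60, 95% interval 0.40 to 2.89; adjusted p = 0.037, limma), a ratio of 3.13, where 11.9% were called higher in RG and 17.4% lower, 29.3% in all. Of the calls between RG and IT, 40.5% were thus higher in RG, a share that became 53.3% after quantile normalization.

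**Figure D2:**
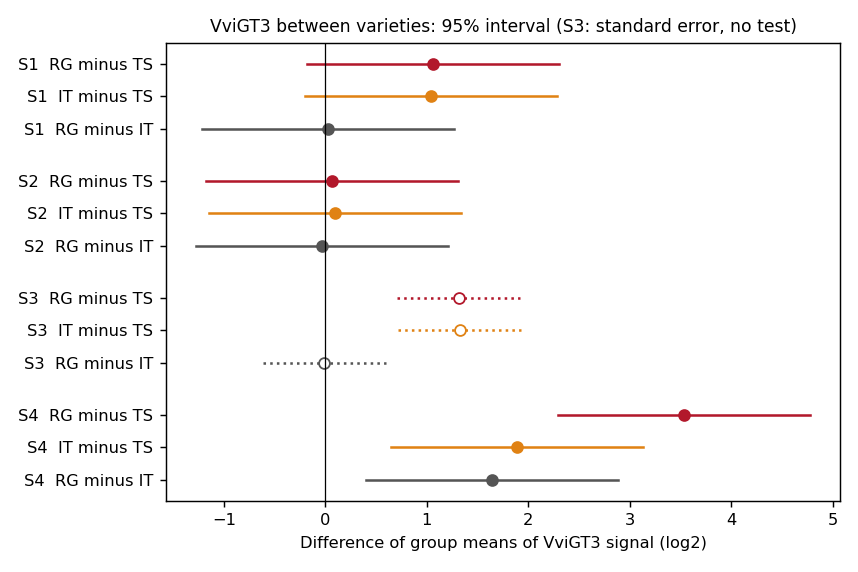
Differences of VviGT3 level between varieties (x axis, log2) at each stage (y axis). Filled points with solid lines are means with 95% intervals from limma, and open points with dotted lines at S3 are means with the standard error and no test; the interval of RG minus TS at S4, from 2.29 to 4.77, lies wholly above 1.

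The call of RG above TS at S4 held when any 1 array was left out, with values from 3.07 to 4.27, and RG was above TS on each of the shared slides, by 4.73 on slide 2, 3.75 on slide 3 and 2.12 on slide 1. The exact permutation test on the 3 against 3 arrays gave p = 0.1 (two-sided), the smallest that this design allows. The 2 calls that involve IT were less steady. IT minus TS was no longer called without IT S4 replicate 3, TS S4 replicate 1 (1.43) or TS S4 replicate 2 (1.61), and RG minus IT was not called without any of 5 of its 6 arrays, the exception being IT S4 replicate 3.

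Single arrays of TS and IT stood out at this stage. In TS it was replicate 3, at 4.26; in that array the 2 petal and stamen markers summed to 1.05 times the 75th percentile, against 9.23 and 6.29, and the 7 green tissue markers to 65.5, against 90.9 and 106.4. By the TS means at S4, the petal and stamen sums were mostly VviAP3b, at 1.90 against -4.50 for VviAP3a. RG minus TS at S4 was -2.45 for VviAP3b and 1.47 for VviAP3a. The ovule and seed coat markers, at 8.49 against 6.17 and 8.94, did not set TS replicate 3 apart. In IT, replicate 3 had the highest VviGT3 level of its group. The embryo and endosperm markers summed to 23.2 there, against 514.4 and 462.7 in the other replicates. Among these markers the 11S globulin gene (VIT_07s0005g03420) had the highest IT mean level at S4, 5.53. The Embryo-specific 3 genes were at 3.75 and -1.49 and EDE1 at -3.48, so the high sums were mostly the globulin. The ovule and seed coat markers summed to 153.2 in replicate 3, against 85.6 and 75.5. The part of these differences in the VviGT3 values was not tested. Between groups, the green tissue markers summed to between 65.5 and 106.4 in TS at S4, between 12.4 and 30.6 in RG and between 5.08 and 8.69 in IT, so that TS, lowest in VviGT3, was highest in these. The ovule and seed coat markers summed to between 6.17 and 8.94 in TS and between 62.4 and 76.1 in RG. In IT they summed to between 75.5 and 153.2. The RG sum was mostly VviAGL11, with a mean level of 5.99 against 1.34 for VvANR and -4.07 for VvLAR1. RG minus TS was 4.16 for VviAGL11, -0.06 for VvANR and -2.48 for VvLAR1. Inner no outer was above background on no array of either variety. VviAGL11 also entered the choice of VviGT3. The part of these markers in the VviGT3 differences was not tested either.

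**Figure D3:**
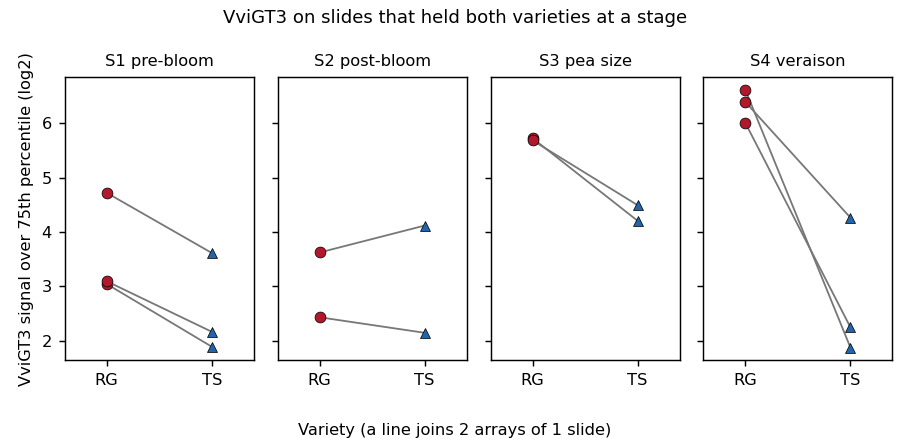
VviGT3 level (y axis, log2 of the signal over the 75th percentile) in Red Globe (circles) and Thompson Seedless (triangles) on slides that held both at 1 stage, with a line for each slide. All 3 lines fall from RG to TS at S1, by 0.93 to 1.15, and at S4, by 2.12 to 4.73, while at S2 one line falls and one rises.

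From pea size to veraison the mean of VviGT3 went up in RG and down in the other two varieties. S4 minus S3 was 0.63 in RG, -1.03 in IT and -1.59 in TS (SE 0.60 each, described without a test). Every RG array at S4 was above every RG array at S3, whereas in IT and in TS the arrays of the 2 stages overlapped through replicate 3. On slides that held both stages, TS gave -2.33 and -2.23, IT gave -1.58, -1.75 and 0.24, and RG gave 0.88 on its 1 such slide. The RG step turned to -0.23 when the arrays were left unscaled and to -0.16 with the slide as a fixed term, so its sign rested on the scaling and on which slides were compared.

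Whether the difference between RG and TS itself changed from post-bloom to veraison was tested as a difference of differences. It was 3.47 larger at S4 than at S2 (SE 0.85, 95% interval 1.71 to 5.22; adjusted p = 0.008, limma), a comparison in which 10.6% of probes were called, 4.7% in that direction. For IT minus TS the same quantity was 1.79 (SE 0.85, 95% interval 0.03 to 3.55; adjusted p = 0.169, limma), which did not pass, with 16% of probes called, 6.82% upwards. Without TS S4 replicate 3 it was 2.52 with an adjusted p of 0.033 (limma).

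The arrays were read in 7 scan sessions, which did not cross RG and TS with IT. On the 8 RG and TS arrays of session 4, VviGT3 was on average 0.60 above the mean of its group, and 5 of them were the highest array of their group, among them TS S2 replicate 3 and TS S4 replicate 3. Leaving out that session, an alternative chosen after seeing the data, raised RG minus TS at S4 to 4.24. With the session as a fixed term it was 3.53 (adjusted p = 3.29e-05, limma). Same-numbered RG and TS arrays at S4 shared a session, so that term cancels and could not change this value. The part of the session in the values was not tested further.

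The study placed 3 genes beside VviGT3. VviAGL11, the MADS-box gene of ovule identity that served as the bait of the co-expression, had an RG minus TS of 4.16 at S4 and of 1.67 at S2, while VviGT3 at S2 differed by 0.07. The paper describes lower VviAGL11 at S4 than at S3 in the seeded varieties. Here its means at S3 and S4 were 5.88 and 5.99 in RG and 4.80 and 5.59 in IT. The cause of this disagreement was not tested. VviMJE, a methyl jasmonate esterase, which opens methyl jasmonate to jasmonic acid, stood 7.07 above TS in RG at veraison and 8.45 above it in IT. VviIFR, annotated as an isoflavone reductase, was 1.52 below TS in RG at S4 and 0.71 above it in IT, the second not called. Between the seeded varieties at S4, RG minus IT was 1.64 for VviGT3, 0.40 for VviAGL11, -1.38 for VviMJE and -2.23 for VviIFR. All 4 genes shared the higher mean in both seeded varieties at S3, where the study chose its candidates, and their orders at S4 differed.

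**Figure D4:**
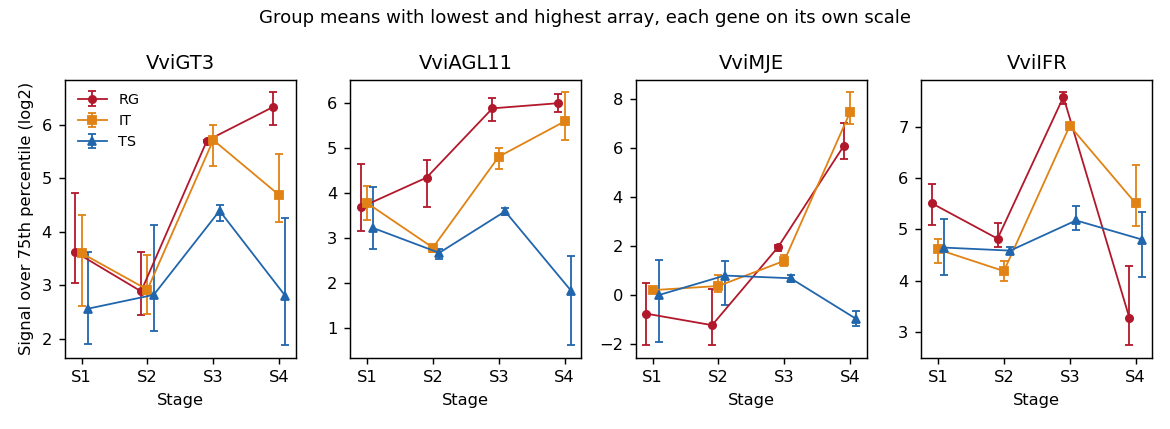
Group means of VviGT3, VviAGL11, VviMJE and VviIFR (y axes, log2 of the signal over the 75th percentile, each gene on its own scale) over the 4 stages in RG (circles), IT (squares) and TS (triangles); bars run from the lowest to the highest of 3 arrays. VviGT3 and VviAGL11 are highest in RG at S4, VviMJE in IT at S4, and VviIFR falls in RG from a mean of 7.58 at S3 to 3.28 at S4.

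Likeness of pattern was measured as the Pearson correlation of the 12 group means with those of VviGT3, over the 9191 other probes that were well above background on all arrays. The median r was 0.01, and 2 probes exceeded 0.9. VviAGL11 ranked seventh with an r of 0.85, as it may since co-expression with it was part of the choice; VviMJE had an r of 0.67 and VviIFR of 0.38. The most alike was a probe designed on transcript XM002285376, which the tables used here do not annotate, with an r of 0.97. Its deviations from the group means over the 36 arrays also followed those of VviGT3 (r = 0.93), including a level of 4.31 on its highest TS array at S4 against a mean of 3.44. Whether both probes bind 1 transcript or closely related ones was not tested. For VviAGL11 the same correlation of deviations was -0.38, so the array-to-array spread of VviGT3 within groups did not follow that of VviAGL11.

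The other probes among the 8 most alike were those for GSVIVT01021581001 (r = 0.92), GSVIVT01024999001 (0.88), GSVIVT01011123001 (0.87), GSVIVT01021975001 (0.86), GSVIVT01026968001 (0.85) and the 60S ribosomal protein L9 gene VIT_16s0098g00730 (0.85). Only VviAGL11 and the ribosomal protein gene carried an annotation. The list is loosely fixed by 12 means: with the Spearman correlation 4 of the 8 stayed among the first 8, with the 36 single arrays 3, and after quantile normalization 4.

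The other auxin genes were taken from the study's tables of differing genes, chosen on these samples, so their counts are no independent evidence. RG minus TS at S4, where 16.9% of all probes were called in either direction around a median of -0.05, serves as the reference. Unlike VviGT3, many of these genes were not well above background on any array of a group, and only a bound could then be given: the mean of the brighter group over that of the dimmer one, with each dim array at the higher of its own value and the lowest signal of a probe above background there.

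Of the 4 genes of amide conjugation and hydrolysis, RG minus TS at S4 was called higher for 0 and lower for 2, with a median of -1.88, or -1.43 with the dim gene at its bound. The 2 were a GH3-like gene (VIT_12s0059g01870) and an indole-3-acetic acid amido synthetase (VIT_01s0150g00300), of the family that joins auxin to amino acids. The GH3-like gene stood at -6.27 in RG against TS, with 1 of 3 RG arrays above background (adjusted p = 3.97e-07, limma), and at least 42.6-fold lower in IT, with 0 of 3. The amido synthetase was not well above background on any RG or IT array at S4 and was at least 2.87-fold lower in RG (adjusted p = 0.0137, limma) and at least 2.98-fold lower in IT (adjusted p = 0.00276, limma). The amidohydrolase VIT_16s0098g00770, which frees auxin from amides, was at 0.20, and the GH3 gene VIT_07s0005g00090 at -1.33, neither called in RG against TS, and the GH3 gene was above background on 1 RG and 2 TS arrays. In IT against TS, where 29.2% of all probes were called, 1 of the 4 was called higher, VIT_07s0005g00090 at 4.54, and 3 lower. VviGT3, which only its annotation ties to the ester conjugate, was called higher in both seeded varieties at S4. The GH3-like and amido synthetase genes were called lower in both. The amidohydrolase was called lower in IT only, at -1.58, and the GH3 gene VIT_07s0005g00090 higher in IT only. Enzyme activity and conjugates were not measured here.

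The AUX1 influx carrier (VIT_13s0067g00330), which brings auxin into cells, was at 0.58 in RG against TS at S4, not called by limma, and was called higher in IT at 1.59. Among 10 auxin signalling genes, 2 were called higher and 5 lower in RG against TS, with a median of -0.97, or -0.40 with 1 dim gene at its bound. The extremes were Auxin response factor 5, the MONOPTEROS factor of embryo and organ patterning, at 2.20 and Auxin response factor 16 at 2.00, against IAA19 at -3.51 and IAA31 at -3.11, both of the Aux/IAA repressor family. In IT against TS 3 of the 10 were called higher and 3 lower, beside 15.9% of all probes called higher and 13.3% lower.

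Of 8 SAUR and other auxin-responsive genes, 0 were called higher and 4 lower in RG against TS at S4, with a median of -2.69, or -1.64 with dim genes at their bounds. The lowest was VIT_03s0038g01270, at least 27.2-fold lower in RG, where no array had it above background. At S1 the same list had 4 called higher in RG and 0 lower, beside 2.74% of all probes called higher and 2.87% lower, while VviGT3 was not called at S1. At S2 0 of the 8 were called either way by limma, beside 1.94% of all probes called higher and 3.02% lower. At an unadjusted p under 0.05, with no threshold on the difference, 1 was higher and 1 lower. The share of all probes at that looser threshold was not counted.

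**Figure D5:**
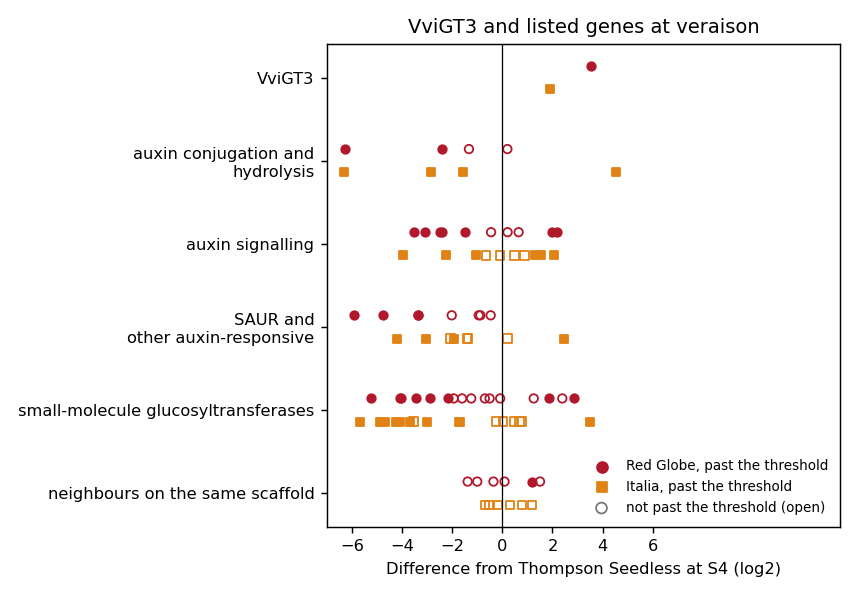
Differences from Thompson Seedless at S4 (x axis, log2) for VviGT3 and each gene of 5 lists (y axis), with Red Globe as circles and Italia as squares; filled symbols passed the threshold of an adjusted p under 0.05 and a difference of at least 1. Values are differences of group means, also for genes that were not above background in a group; VviGT3 lies at 3.53 in RG and 1.89 in IT.

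Of 16 other small-molecule glucosyltransferases, 2 were called higher and 6 lower in RG against TS at S4, with a median of -1.43, or -0.77 with dim genes at their bounds. The 2 with the highest differences were an anthocyanidin 3-O-glucosyltransferase (VIT_19s0085g00800), at least 3.32-fold higher in RG because no TS array had it above background, and a zeatin O-glucosyltransferase (VIT_08s0007g08920), which acts on a cytokinin, at 2.39 and not called. The 2 lowest were UDP-glucose flavonoid 3-O-glucosyltransferase 7 (VIT_11s0052g01600), at least 11.8-fold lower in RG, and a glucosyltransferase-2 (VIT_13s0019g02890), at -4.08 with 1 of 3 RG arrays above background. In IT against TS 1 of the 16 was called higher and 9 lower, beside 15.9% of all probes called higher and 13.3% lower. At S2, where VviGT3 was not called, 1 was called higher and 1 lower in RG, beside 1.94% and 3.02% of all probes. At S1 0 were called higher and 1 lower by limma, beside 2.74% and 2.87% of all probes. At an unadjusted p under 0.05, with no threshold on the difference, 2 were higher and 6 lower. The share of all probes at that looser threshold was not counted.

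The 10 genes of flavanol and phenylpropanoid synthesis include genes of the route to the seed coat tannins. In RG against TS at S4, 1 of the 10 was called higher and 2 lower. Their median there was -0.38, beside 6.93% of all probes called higher and 9.96% lower. In IT against TS 8 were called higher and 0 lower, with a median of 2.53, beside 15.9% of all probes called higher and 13.3% lower. Between the seeded varieties, 9 of the 10 were called lower in RG, beside 17.4% of all probes, whereas VviGT3 was called higher in RG, as were 11.9% of all probes. Flavonol synthase (VIT_18s0001g03430) was the highest of the list in RG against TS, at 2.99, and VviGT3 and this gene had an r of 0.81 over the 12 means. Anthocyanidin reductase, VvANR, was at -0.06 in RG and 4.27 in IT, both against TS.

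Of 6 genes with identifiers on the same scaffold as VviGT3, 1 was called higher in RG against TS at S4, a D-3-phosphoglycerate dehydrogenase (VIT_03s0180g00130, 1.19; adjusted p = 0.043, limma), and 0 lower, with a median of -0.13. The closest of them in numbering, the ABC transporter VIT_03s0180g00300, was at -1.39 and was not called. In IT against TS 0 of the 6 were called in either direction by limma, beside 29.2% of all probes, and 0 passed an unadjusted p under 0.05.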

How the data were processed

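RNA from ovules and seeds was labelled with Cy3 and hybridised to 1-colour custom Agilent grapevine arrays. The deposited files hold scanner intensities as the authors' Feature Extraction software wrote them, and a value table whose intensities equal the unscaled processed signals within 0.1% for 99.15% of values. The file headers name another version of that software than the methods, and their scan times precede the seasons the methods give; this was not resolved. Here, unflagged spots of a probe were averaged (26564 of 26688 probes), and the log2 of the 75th percentile of each array was subtracted, the scaling the methods name. The 23068 probes that all 3 arrays of some group showed well above background were fitted with limma 3.58.1, with 1 mean per group over 36 arrays and Benjamini-Hochberg adjustment over all of them. A call needed an adjusted p under 0.05 and a log2 difference of at least 1. The procedure was tested on simulated data. The number of arrays limits the precision. Probes were paired with genes through the study's tables, and named genes were VviGT3, its 3 companions, the 2 highest and lowest of each list for RG minus TS at S4, and the 8 most alike probes; others named were chosen after their values were seen. Members and lists were chosen with earlier results of these data known. For RG minus TS, deviations of same-numbered arrays correlated between 0.477 and 0.804 at S1, S2 and S4, so the numbers pair these samples; for every comparison with IT at least 1 of the 3 correlations was below 0.1. A result on 1 listed gene is not reported here.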

Additional observations from a re-analysis of the deposited data

Results flagged for a closer look

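The difference between RG and TS in VviGT3 was 3.47 larger on the log2 scale at S4 than at S2, by a test of the difference itself (SE 0.85; adjusted p = 0.008, limma). RG minus TS was 3.53 at S4 and 0.07 at S2. Over 14 other settings the value ran from 2.97 to 4.15 and the adjusted p from 7.90e-06 to 0.069.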

How the results depend on the processing

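Of the 14 tested differences, RG minus TS at S4 was called under every setting except the methods' t-test after Benjamini-Hochberg adjustment (3.53; adjusted p = 0.238). That test also gave 1.89 for IT minus TS at S4 (0.265 adjusted, 0.108 unadjusted) and 1.64 for RG minus IT at S4 (0.163 adjusted); it was not run for the 2 differences of differences. Quantile normalization gave -0.17 for RG minus IT at S1, -0.0046 for IT minus TS and 0.0053 for RG minus IT at S2, and 1.58 for IT minus TS and 1.39 for RG minus IT at S4, the last 2 not called. Without scaling, RG minus TS was -0.49 and IT minus TS -0.44 at S2, IT minus TS 2.05 and RG minus IT 1.61 at S4 were not called, and S4 minus S3 was -0.23 in RG and -2.04 in IT; the all-probe median of the difference of differences for RG minus TS moved from -0.16 to 0.53. With the percentile taken over probes above background, RG minus IT at S1 was -0.11, and with the deposited value table it was -0.017. Normexp, which was run on the median raw signals and so changed the starting signal as well, gave -0.18 for IT minus TS and 0.20 for RG minus IT at S2, and 1.64 for IT minus TS at S4, not called. With only the groups compared in the fit, IT minus TS at S4 (1.89; adjusted p = 0.096, limma) and the difference of differences for RG minus TS (3.47; adjusted p = 0.069, limma) were not called; fewer samples entered the fit. With the slide as a random block, RG minus IT was -0.31 at S1 and 0.049 at S2; as a fixed block, RG minus TS at S2 was -0.043 and S4 minus S3 in RG -0.16, and IT could not be compared with the other varieties. With array weights, S2 minus S1 was -1.35 in RG and -1.10 in IT, both called, and -0.38 in TS, and the difference of differences for IT minus TS was called at 1.75. Without scan session 4, chosen after seeing the data, IT minus TS at S1 was called at 1.70, RG minus IT at S1 was -0.55, and the difference of differences for IT minus TS was called at 1.87. The cause of these changes was not tested.

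Leaving out 1 array at a time gave 3.07 to 4.27 for RG minus TS, 1.43 to 2.62 for IT minus TS and 1.39 to 2.03 for RG minus IT at S4. At S2 it gave -0.30 to 0.71 for RG minus TS, -0.24 to 0.75 for IT minus TS and -0.40 to 0.29 for RG minus IT. It gave -0.53 to 0.38 for RG minus IT at S1, -0.39 to 0.79 for S2 minus S1 in TS, and 1.14 to 2.52 for the difference of differences for IT minus TS. With the replicate block, RG minus TS at S4 stayed at 3.53 (adjusted p = 9.20e-05, limma), and the block changed no call. The replicate numbers paired only RG with TS within S1, S2 and S4. A single block over all arrays therefore cannot show whether that pairing matters. The number of arrays limits the precision: the SE of a difference between 2 groups was 0.60, and 0.44 for RG minus TS at S1 with the slide as a fixed block.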
